A study of Homo sapiens with 5 samples.

Results

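The genes described are 8 genes of cholesterol synthesis and its sterol feedback, out of 60623 genes in the table. They were chosen by symbol as HMGCS1, IDI1, FDFT1, SQLE, LSS and SC5D (enzymes, in pathway order), INSIG1 (sterol feedback) and SREBF2 (transcription factor). All 8 were found, and all 8 passed the filter on low counts. LDL uptake, which shares this feedback, is represented through SREBF2 and by a separate list of uptake and transport genes. Expression was measured by RNA-seq of poly(A) RNA from HCT116 cells, an established human colorectal carcinoma line. There were 2 libraries of cells treated with LT4 (numbered 1 and 3) and 3 control libraries (numbered 1, 2 and 3), about which the labels say nothing more. The titles give only these numbers, which are read here as replicates. The file headers pool the controls as a single group but list each LT4 library as its own group. Whether the LT4 libraries differ in condition is not stated. The compound is 4-acetylantrocamol LT3 in the series title and LT4 in the sample titles, and neither dose nor time is given. The study asked how LT4 acts on colorectal cancer cells through PI3K/AKT and MAPK signalling.

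Cells build cholesterol from acetyl-CoA by way of mevalonate, isoprenoid diphosphates and squalene, and squalene is then cyclised and trimmed to cholesterol. When membranes hold little sterol, SCAP carries SREBP-2 from the endoplasmic reticulum to the Golgi, where proteases release a fragment that switches on the synthesis and uptake genes. When sterol is plentiful, INSIG proteins hold SCAP back, and the genes are usually turned down together.

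Total counts were 9840467 and 2281912 in LT4 replicates 1 and 3, and between 11653484 and 12296916 in the controls. LT4 replicate 3 stood apart in depth and composition: mitochondrially encoded genes took 9.92% of its counts, against 5.73% in LT4 replicate 1 and 5.83% to 6.64% in the controls. Of 8 colon epithelial markers all were detected in at least 1 library, with a summed level of 9837 to 10608 (CPM, the share of a library's counts scaled with edgeR's TMM factors) with LT4 and 10391 to 12088 CPM in controls. KRT8 (7142 and 6425 CPM in LT4 replicates 1 and 3) and KRT18 (3268 and 3206 CPM) made up most of this sum. KRT20, VIL1 and LGALS4, markers of differentiated enterocytes, had few counts. The 6 leukocyte markers summed to at most 0.297 CPM with LT4 and 0.432 CPM in controls, with PTPRC and CD3E at 0. The 6 fibroblast markers summed to 10 to 14.4 CPM with LT4 and 16.7 to 18.3 CPM in controls, mostly from COL1A1, with DCN at 0. The 5 hepatocyte markers summed to 6.63 to 8.27 CPM with LT4 and 5.27 to 10.5 CPM in controls, mostly from SERPINA1, with TTR and CYP3A4 at 0. Separate cultures are not stated, so the p-values cover the spread between libraries, and that spread may be technical. Since the headers list the LT4 libraries as separate groups, the members' values are also given for either LT4 library alone. In bulk RNA, fewer expressing cells and less RNA per cell cannot be told apart.

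The stretches before the gene starts are shown for 4 genes because this is where SREBPs and their partner NF-Y act. RefSeq promoters (GRCh38.p14) were matched for 6 of the 8 genes, and 250 bases before each annotated start were searched on both strands for TCACNCCAC (a form of the sterol regulatory element), TCACGTGA (an E-box that SREBPs can also bind) and CCAAT (bound by NF-Y). Matches are in capitals, each sequence reads 5′ to 3′ on the gene's strand, and neither of the longer motifs overlapped a CCAAT. Bases inside a GENCODE transcript were left out, except for INSIG1, where 30 bases around the match are given.
SREBF2 (chr22:41832855-41833078, plus strand): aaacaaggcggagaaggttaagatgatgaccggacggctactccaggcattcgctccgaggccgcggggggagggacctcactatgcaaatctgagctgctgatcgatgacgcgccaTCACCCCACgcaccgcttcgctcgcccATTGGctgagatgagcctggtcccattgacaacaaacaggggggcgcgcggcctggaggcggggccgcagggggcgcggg
INSIG1 (chr7:155297811-155297840, plus strand): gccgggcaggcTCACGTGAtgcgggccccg
HMGCS1 (chr5:43313513-43313662, minus strand): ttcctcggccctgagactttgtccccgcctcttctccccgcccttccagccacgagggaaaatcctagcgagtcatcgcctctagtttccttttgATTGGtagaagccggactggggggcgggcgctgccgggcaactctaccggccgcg
LSS (chr21:46228825-46229024, minus strand): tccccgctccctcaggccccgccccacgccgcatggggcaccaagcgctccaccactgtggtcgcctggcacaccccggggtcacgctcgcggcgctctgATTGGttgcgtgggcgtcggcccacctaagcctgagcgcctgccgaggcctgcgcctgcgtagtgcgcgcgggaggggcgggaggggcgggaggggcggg

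TCACNCCAC was found only in SREBF2 among the 6 matched genes, 133 bases before the start, and 1.09% of all genes with a window hold it. TCACGTGA was found only in INSIG1, 56 bases before the start, and 1.04% of all genes hold it. CCAAT, or ATTGG on the other strand, stood in at least 1 window of all 6 genes and in 8 of their 10 windows. It stood in 37% of all genes with a window and in 32% of all windows. The windows of SC5D overlap and share 1 match. A match describes letters and does not show binding.

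The levels of the 8 genes spanned a wide range. Levels between genes are compared in TPM, which is scaled by transcript length. FDFT1 was the most abundant, with a level of 108 ± 11.6 TPM with LT4 (SD, n = 2) and 104 ± 5.82 TPM in controls (SD, n = 3). SC5D was the scarcest, with 3.91 ± 0.286 TPM with LT4 and 2.52 ± 0.482 TPM in controls. In controls FDFT1 lay above 90.9% of the genes tested and SC5D above 26.2%. The order of mean levels was FDFT1, SREBF2, SQLE, INSIG1, LSS, HMGCS1, IDI1, SC5D in both groups. Neighbours whose libraries overlapped were INSIG1 and LSS in both groups, HMGCS1 and IDI1 in both groups, and LSS and HMGCS1 with LT4 only. The other neighbours did not overlap within either group.

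**Figure D1:**
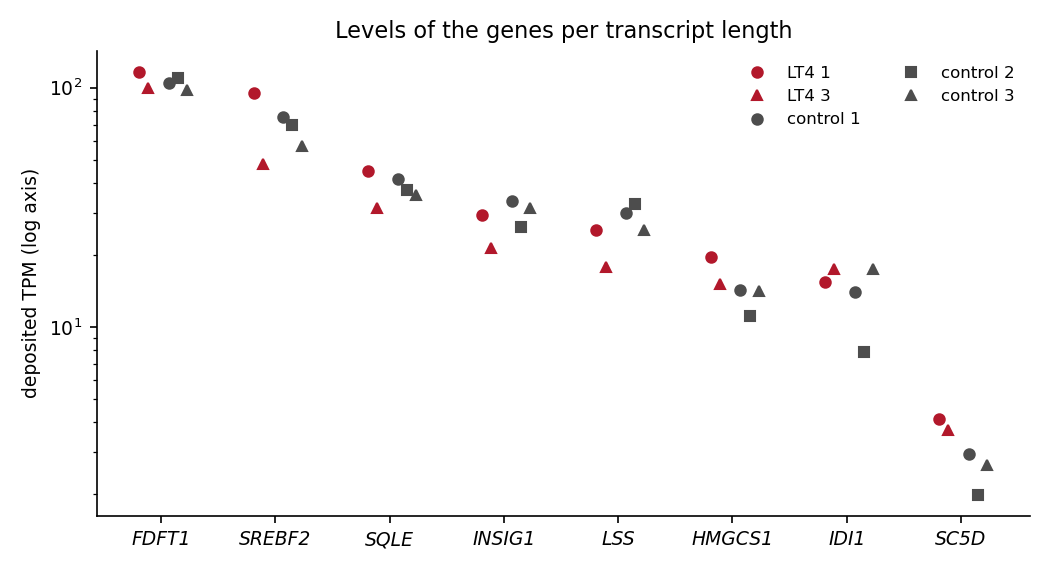
Deposited TPM of each gene (log axis) in the LT4 libraries (red) and control libraries (grey), 1 point per library with its replicate number as the marker. FDFT1 lies near 100 TPM in all 5 libraries and SC5D between 1.99 and 4.12 TPM, and the LT4 points of SREBF2 lie on either side of its controls.

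LT4 was compared with control in HCT116 cells with edgeR's quasi-likelihood test over all 13833 genes tested. None of the 8 genes passed an adjusted p of 0.05, a threshold that 0.137% of the genes tested passed. At an unadjusted p under 0.05, edgeR and limma voom each gave 2 of the 8 with higher values and 1 with a lower value, and DESeq2 gave 1 higher and 1 lower, with 0 calls after adjustment by any of these tools. An unadjusted p under 0.05 by edgeR was met by 13.9% of all genes, 8.58% with higher and 5.28% with lower values. For 2 genes (HMGCS1 and SC5D) the LT4 libraries were both above every control, beside 17.3% of all genes. Both lay below all controls for 1 gene (LSS), beside 16.5% of all genes. The median log2 fold change of the 8 genes was 0.04 and that of all genes tested was -0.003. Their summed level was 708 and 587 CPM in LT4 replicates 1 and 3, against 669, 663 and 620 CPM in controls 1, 2 and 3. Of the 8 genes, 5 had a positive and 3 a negative log2 fold change.

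**Figure D2:**
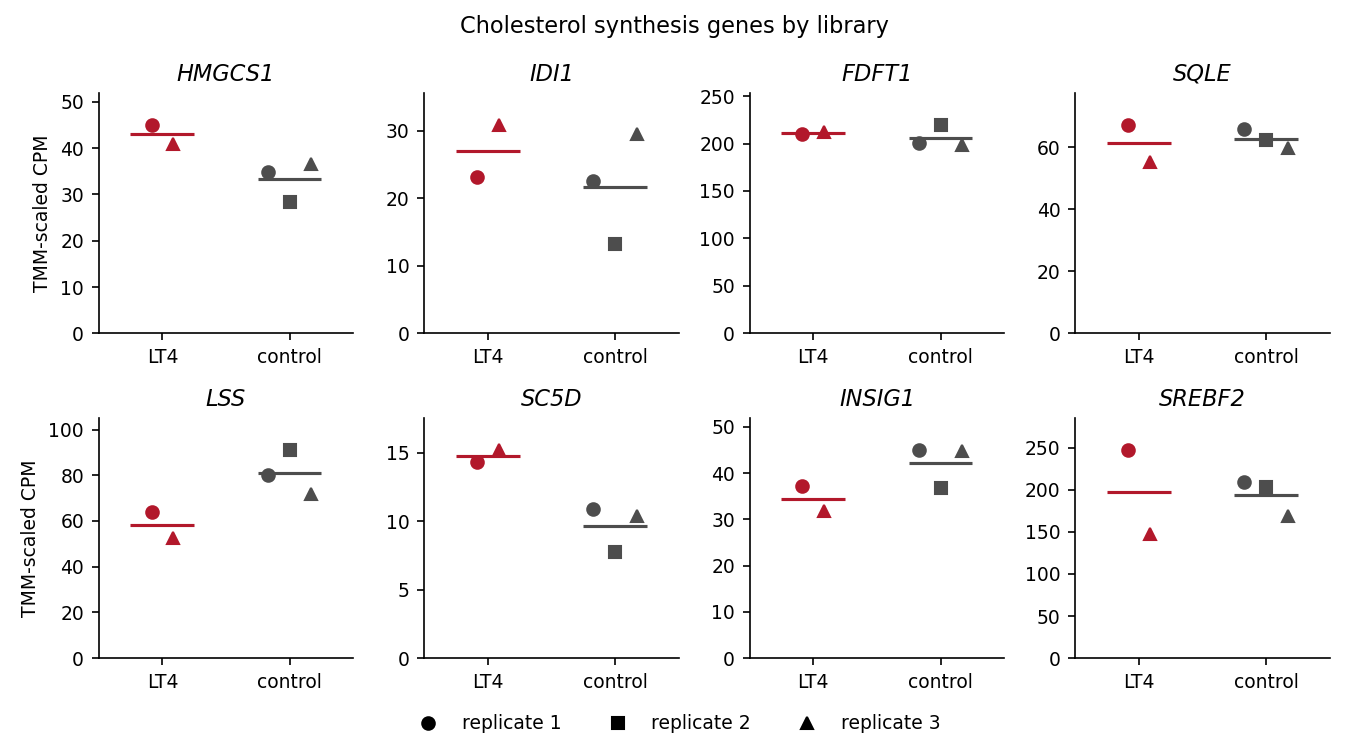
TMM-scaled CPM of each gene in every library, LT4 in red at the left and control in grey at the right, with the group mean as a bar and the replicate number as the marker. The groups are apart for HMGCS1, LSS and SC5D and not for the other genes, and SQLE and SREBF2 each have LT4 replicate 1 above and LT4 replicate 3 below their controls.

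HMGCS1 encodes cytosolic HMG-CoA synthase, which makes the substrate of the mevalonate pathway (ENSG00000112972, GRCh38 chromosome 5, 43289395 to 43313512, protein-coding). It had 45 and 40.9 CPM in LT4 replicates 1 and 3, against 34.9, 28.4 and 36.6 CPM in controls 1, 2 and 3. Both LT4 libraries lay above every control. The log2 fold change was 0.38 (SE 0.16, 95% interval 0.03 to 0.73), and the adjusted p was 0.321 by edgeR. With LT4 replicate 1 alone it was 0.44 and with LT4 replicate 3 alone 0.30. LT4 replicate 3 held 94 counts, and its Poisson interval of 33.1 to 50.1 CPM includes the levels of controls 1 and 3.

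IDI1 encodes the isomerase that interconverts the isoprenoid building blocks isopentenyl and dimethylallyl diphosphate (ENSG00000067064, chromosome 10, 1039152 to 1049170). Its level was 23.2 and 30.9 CPM in LT4 replicates 1 and 3, against 22.5, 13.2 and 29.6 CPM in controls 1, 2 and 3. The groups overlapped, and the controls alone differed by 2.24 times between the highest and the lowest, the widest spread of the 8 genes. Control 2 was based on 152 counts, with an exact Poisson interval of 11.2 to 15.5 CPM that covers counting error only and does not reach the other controls. By edgeR the log2 fold change was 0.27 (SE 0.30, 95% interval -0.39 to 0.92, adjusted p = 0.732). With LT4 replicate 1 alone it was 0.09 and with LT4 replicate 3 alone 0.51. It was 0.56 without control 3 (adjusted p = 0.518) and 0.01 without control 2 (adjusted p = 0.994).

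FDFT1 encodes squalene synthase, which takes farnesyl diphosphate into the sterol branch (ENSG00000079459, chromosome 8, 11795573 to 11839309). Its level was 209.7 and 212 CPM in LT4 replicates 1 and 3, against 200.3, 219.7 and 199 CPM in controls 1, 2 and 3. Both LT4 libraries lay inside the range of the controls. The difference on the log2 scale was 0.03 by edgeR (SE 0.13), with a 95% interval of -0.25 to 0.32, the narrowest of the 8 genes, and an adjusted p of 0.945. For FDFT1 the single-library values were 0.02 (LT4 replicate 1) and 0.04 (LT4 replicate 3).

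SQLE encodes squalene epoxidase, an oxygen-dependent enzyme and a control point of the later pathway (ENSG00000104549, chromosome 8, 124998497 to 125022283). Its level was 67.2 and 55.3 CPM in LT4 replicates 1 and 3, against 65.8, 62.2 and 59.6 CPM in controls 1, 2 and 3. LT4 replicate 1 was above and LT4 replicate 3 below all controls. On the log2 scale the difference was -0.01 (SE 0.15, 95% interval -0.33 to 0.30, adjusted p = 0.983 by edgeR), with 0.10 for LT4 replicate 1 alone and -0.18 for LT4 replicate 3 alone.

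LSS encodes lanosterol synthase, which cyclises oxidised squalene to the sterol ring system (ENSG00000160285, chromosome 21, 46188141 to 46228824). Its level was 63.8 and 52.7 CPM in LT4 replicates 1 and 3, against 80.2, 91.3 and 72 CPM in controls 1, 2 and 3. Both LT4 libraries lay below every control. The log2 fold change was -0.46 (SE 0.16, 95% interval -0.81 to -0.12), with an unadjusted p of 0.0127 and an adjusted p of 0.231 by edgeR. It was -0.35 with LT4 replicate 1 alone (adjusted p = 0.231) and -0.62 with LT4 replicate 3 alone (adjusted p = 0.0525), where the spread comes from the controls alone. LSS had the lowest unadjusted p of the 8 genes.

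SC5D encodes the sterol C5-desaturase that acts on lathosterol late in the pathway (ENSG00000109929, chromosome 11, 121292453 to 121308694). Its level was 14.3 and 15.2 CPM in LT4 replicates 1 and 3, against 10.9, 7.72 and 10.4 CPM in controls 1, 2 and 3. Both LT4 libraries lay above every control. LT4 replicate 3 held only 35 counts of the gene, with a Poisson interval of 10.6 to 21.2 CPM that reaches down to the level of control 1. edgeR gave a log2 fold change of 0.60 (SE 0.22, 95% interval 0.13 to 1.07, unadjusted p = 0.016, adjusted p = 0.251), the largest of the 8 genes in either direction. It was 0.57 and 0.66 with LT4 replicates 1 and 3 alone.

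INSIG1 encodes the membrane protein that retains SCAP and SREBP in the endoplasmic reticulum, and it is itself a target of SREBPs (ENSG00000186480, chromosome 7, 155297776 to 155310235). Its level was 37.2 and 31.8 CPM in LT4 replicates 1 and 3, against 45.1, 36.8 and 44.8 CPM in controls 1, 2 and 3. The groups overlapped through control 2, which lay just below LT4 replicate 1. The log2 fold change was -0.27 (SE 0.16, 95% interval -0.62 to 0.08, adjusted p = 0.482 by edgeR), with -0.18 and -0.41 for LT4 replicates 1 and 3 alone. Its Poisson interval in LT4 replicate 3 (73 counts) was 24.9 to 39.9 CPM, below the levels of controls 1 and 3. INSIG1 carries the E-box shown above, whereas HMGCS1, IDI1, LSS and SC5D matched only CCAAT. A relation between these motifs and the fold changes was not tested.

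SREBF2 encodes SREBP-2, the transcription factor of the pathway, which is controlled mainly by proteolysis of the protein (ENSG00000198911, chromosome 22, 41833079 to 41907308). Its level was 248 and 148 CPM in LT4 replicates 1 and 3, against 209.7, 204 and 168 CPM in controls 1, 2 and 3. LT4 replicate 1 lay above all controls and LT4 replicate 3 below all of them. The ratio between the LT4 libraries was 1.67, while the highest control was 1.25 times the lowest. The Poisson intervals, 238 to 258 CPM in LT4 replicate 1 and 133 to 165 CPM in LT4 replicate 3, did not meet. The log2 fold change over both was 0.04 (SE 0.19, 95% interval -0.38 to 0.47, adjusted p = 0.947 by edgeR), with 0.35 (adjusted p = 0.15) and -0.39 (adjusted p = 0.171) for LT4 replicates 1 and 3 alone. Among all genes tested 18.8% differed at least as much between the LT4 libraries. LT4 replicate 3 is the shallow library with the higher mitochondrial share, and the part of these properties in the SREBF2 values was not tested. MIR33A, a microRNA gene within SREBF2, had 0 counts in every library.

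**Figure D3:**
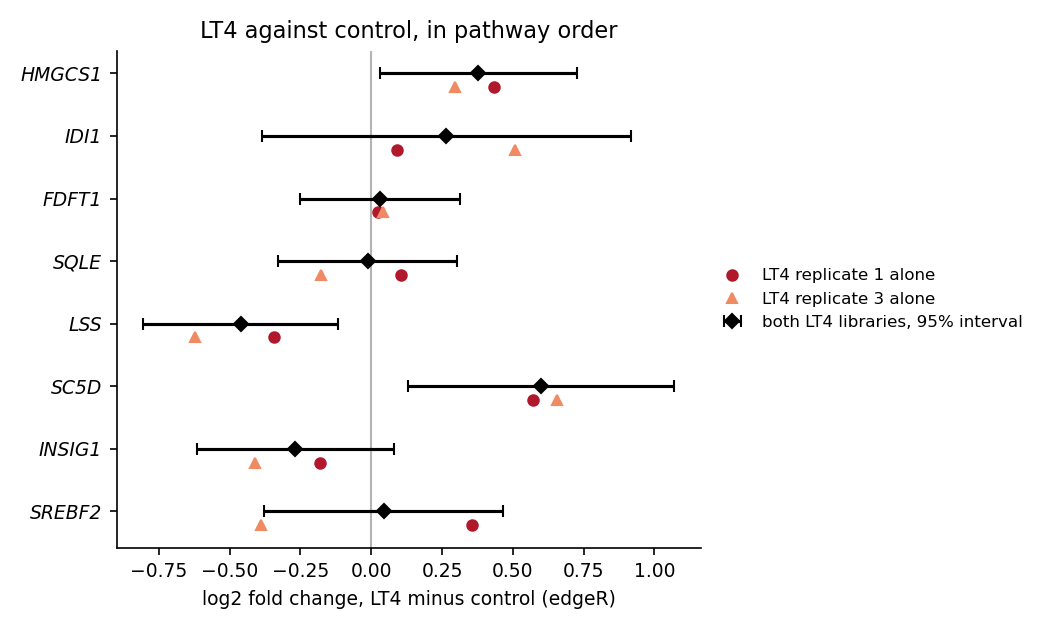
Log2 fold change of LT4 against control by edgeR for the 8 genes in pathway order, as a diamond with its 95% interval for both LT4 libraries, a circle for LT4 replicate 1 alone and a triangle for LT4 replicate 3 alone. The intervals of HMGCS1 and SC5D lie above zero and that of LSS below it before adjustment over all genes, and the single-library values of SREBF2 and SQLE stand on opposite sides of zero.

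The genes also differed in how far the controls spread among themselves. Control 2 was the lowest control for 4 of the 8 genes (HMGCS1, IDI1, SC5D and INSIG1), beside 35.0% of all genes tested. It was the highest for FDFT1 and LSS, beside 4680 of all 13833 genes tested. The highest control was 1.10 times the lowest for SQLE, 1.11 times for FDFT1, 1.29 times for HMGCS1 and 1.41 times for SC5D, and the median over the 8 genes was 1.26, beside 1.25 over all genes. Without control 2 the log2 fold change was 0.01 for IDI1, 0.27 for HMGCS1, 0.46 for SC5D, -0.36 for INSIG1 and -0.37 for LSS, each with an adjusted p of 0.583 or more by edgeR. Of these 5 genes, IDI1 had the value nearest to zero without that library. With LT4 replicate 1 alone 6 of the 8 genes had positive values (median 0.10), and with LT4 replicate 3 alone 4 had (median -0.07).

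The authors' deposited table, which sets single LT4 libraries against the controls, had none of the 8 genes at an adjusted p under 0.05 for LT4 replicate 1 or LT4 replicate 3. The smallest adjusted p in the authors' deposited table was 0.0865 for LT4 replicate 1 (SC5D, log2 fold change 0.58) and 0.0569 for LT4 replicate 3 (LSS, -0.64). For SREBF2 the authors' deposited table gave 0.37 for LT4 replicate 1 and -0.41 for LT4 replicate 3. Both comparisons share the 3 controls. The table also has columns headed LT4 replicate 2, which match none of the samples used and were not analysed here.

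The other genes of sterol synthesis lay mostly on the negative side. Of 14 other enzymes, all tested, none passed (0 calls by each of edgeR, DESeq2 and limma voom). By edgeR, 6 had lower and 0 higher values at an unadjusted p under 0.05, beside 5.28% lower and 8.58% higher of all genes tested. DESeq2 gave 4 lower and limma voom 5 lower at that threshold, with 0 higher by either. Of the 14, 11 had a negative log2 fold change, and the median was -0.30, beside -0.003 for all genes tested. Both LT4 libraries lay below all controls for 8 of them and above all controls for none, beside 16.5% and 17.3% of all genes, and in each LT4 library on its own the median was -0.17 for replicate 1 and -0.28 for replicate 3. HSD17B7, a sterol ketoreductase, had 8.3 ± 1.8 CPM with LT4 (SD, n = 2) and 12.5 ± 1 CPM in controls (SD, n = 3), a log2 fold change of -0.68 (adjusted p = 0.223 by edgeR). PMVK, the phosphomevalonate kinase, had a log2 fold change of -0.39 (adjusted p = 0.294) and ACAT2, the cytosolic thiolase that makes acetoacetyl-CoA, -0.39 (adjusted p = 0.325). LSS, at -0.46, lies within the range of this list, while HMGCS1 and SC5D, at 0.38 and 0.60, were exceeded in it only by CYP51A1, a lanosterol demethylase of few counts that is named with its values in view (0.71, adjusted p = 0.507).

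DHCR7, which reduces a sterol ring double bond late in the pathway and is named with its values in view, had 156 and 104 CPM in LT4 replicates 1 and 3, against 194, 182 and 152 CPM in controls 1, 2 and 3. LT4 replicate 1 lay within the controls, and LT4 replicate 3 lay below them. Mitochondrially encoded genes took 9.92% of the counts of LT4 replicate 3, and the part of this in the DHCR7 values was not tested. With LT4 replicate 3 alone DHCR7 fell by 0.76 on the log2 scale (adjusted p = 0.00685 by edgeR). With LT4 replicate 1 alone its value was -0.17, and only ACAT2 passed among the 14 (-0.58, adjusted p = 0.0419, beside -0.15 with LT4 replicate 3 alone). In these single-library comparisons 4.12% of genes tested passed for LT4 replicate 3 and 3.7% for LT4 replicate 1, and none of the 8 genes did in either.

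**Figure D4:**
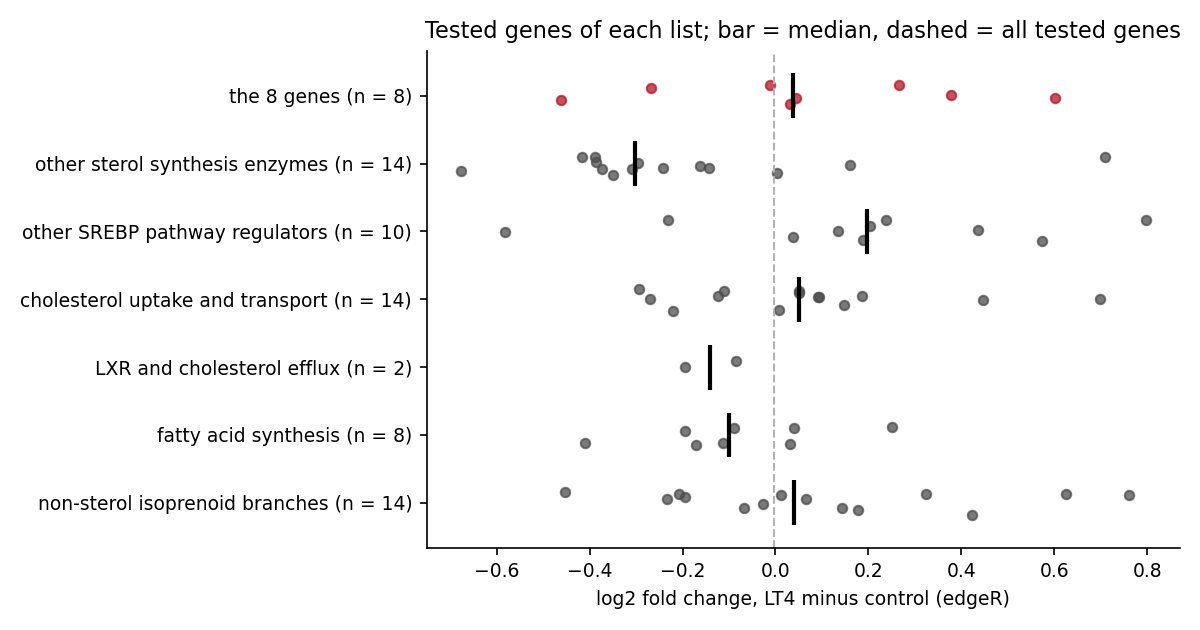
Log2 fold change of LT4 against control by edgeR for the tested genes of each list, 1 point per gene, with the list's median as a bar and the median of all genes tested as a dashed line. The 8 genes (red) spread on both sides with a median of 0.04, and the other sterol synthesis enzymes have a median of -0.30.

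Among 10 other regulators of SREBP processing none passed (0 by edgeR, DESeq2 and limma voom), and the median was 0.20. At an unadjusted p below 0.05, each tool gave 1 higher and 1 lower, beside 8.58% higher and 5.28% lower of all genes by edgeR. ERLIN2, an endoplasmic reticulum protein that takes part in sterol-regulated degradation, had 31.3 ± 2.45 CPM with LT4 (SD, n = 2) and 21.3 ± 0.927 CPM in controls (SD, n = 3), a log2 fold change of 0.57 (adjusted p = 0.147 by edgeR). With LT4 replicate 1 alone it rose by 0.64 (adjusted p = 0.0335), and with LT4 replicate 3 alone its value was 0.48 (adjusted p = 0.255). SREBF1, which encodes SREBP-1, had 255 and 134 CPM in LT4 replicates 1 and 3, against 304, 308 and 272 CPM in controls 1, 2 and 3. Its log2 fold change was -0.58 (adjusted p = 0.28 by edgeR), and with LT4 replicate 3 alone SREBF1 fell by 1.14 (adjusted p = 6.29e-06), while with LT4 replicate 1 alone its value was -0.21 (adjusted p = 0.457). INSIG2, the relative of INSIG1 and of few counts, had a log2 fold change of 0.80 (adjusted p = 0.388). LT4 replicate 1 held 1.91 times the SREBF1 level of LT4 replicate 3, beside 1.67 times for SREBF2, and the part of the depth and mitochondrial share of LT4 replicate 3 in the SREBF1, SCD and FASN values was not tested.

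Cholesterol uptake and transport had 15 listed genes, of which 14 were tested and none passed (0 by edgeR, DESeq2 and limma voom). At an unadjusted p below 0.05, each tool gave 2 higher and 0 lower, beside 8.58% higher and 5.28% lower of all genes by edgeR. The median was 0.05. GRAMD1B, which moves cholesterol from the plasma membrane to the endoplasmic reticulum, had 14.3 ± 0.736 CPM with LT4 (SD, n = 2) and 8.7 ± 1.06 CPM in controls (SD, n = 3), a log2 fold change of 0.70 (adjusted p = 0.17 by edgeR), and LRP8, a lipoprotein receptor, had 0.45 (adjusted p = 0.265). SCARB1, a receptor for high-density lipoprotein and the most abundant gene of the list, had 137 ± 1.39 CPM with LT4 and 165 ± 11.8 CPM in controls, a log2 fold change of -0.27 (adjusted p = 0.4). VLDLR, named with its values in view, was not tested, with 0 counts in both LT4 libraries and in control 1 and 1 count in each of the other controls.

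Of 6 genes of LXR and cholesterol efflux only NR1H2 (-0.19, adjusted p = 0.622) and NR1H3 (-0.09, adjusted p = 0.846), which encode the LXR receptors, had enough counts to be tested. Fatty acid synthesis, driven mainly by SREBP-1, had 8 tested genes, no call (0 by edgeR, DESeq2 and limma voom) and a median of -0.10. By each tool 0 were higher and 1 lower at an unadjusted p below 0.05. Of all genes, 8.58% were higher and 5.28% lower at that threshold by edgeR. The desaturase gene SCD had 999 and 700 CPM in LT4 replicates 1 and 3, against 1200, 1120 and 1074 CPM in controls 1, 2 and 3 (log2 fold change -0.41, adjusted p = 0.263 by edgeR), and values were 0.25 for ACSS2 (adjusted p = 0.536) and -0.19 for ACACA (adjusted p = 0.592). FASN, the most abundant, had 2640 and 1095 CPM in LT4 replicates 1 and 3, against 2246, 2105 and 1621 CPM in controls 1, 2 and 3. With LT4 replicate 3 alone SCD fell by 0.69 (adjusted p = 0.0033), FASN by 0.86 (adjusted p = 0.00184) and FADS2, named with its values in view, by 0.97 (adjusted p = 0.012), and no gene of this list passed with LT4 replicate 1 alone. The values with LT4 replicate 1 alone were -0.18 for SCD, 0.41 for FASN and 0.19 for FADS2, and over both LT4 libraries -0.09 for FASN and -0.17 for FADS2.

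The non-sterol branches that start from the same isoprenoids, such as prenylation, dolichol and ubiquinone, had 14 tested genes, no call (0 by edgeR, DESeq2 and limma voom) and a median of 0.04. At an unadjusted p below 0.05, edgeR gave 2 higher and 1 lower, beside 8.58% higher and 5.28% lower of all genes. DESeq2 gave 1 higher and 0 lower, and limma voom 1 higher and 1 lower. PGGT1B, a subunit of an enzyme that prenylates proteins, had a log2 fold change of 0.76 (adjusted p = 0.247), TRIT1, which prenylates tRNA, -0.45 (adjusted p = 0.283), and NUS1, of dolichol synthesis, 0.42 (adjusted p = 0.348). ICMT, which methylates prenylated proteins and was the most abundant, had 160 ± 9.85 CPM with LT4 (SD, n = 2) and 153 ± 2.6 CPM in controls (SD, n = 3).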

How the data were processed

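The authors deposited raw read counts per Ensembl gene and TPM values scaled to 1000000 per library, per the file headers. They also deposited a log2 fold change, a p-value and an adjusted p for single LT4 libraries set against the controls (14970 genes), per the file headers, with no test named. The submitters' processing notes list fastp 0.20.0, HISAT2 2.1.0, Subread 2.0.1, SAMtools 1.9 and featureCounts, and the build GRCh38, without order or settings. Per the labels' protocols the kit was TruSeq stranded mRNA. The annotation release and strand setting were not given in the sources used here. Antisense genes that overlap members had at most 12 counts in any library. Columns headed LT4 replicate 2 (2 per-sample, 3 of its comparison with the controls) match none of the samples and were not analysed here, so LT4 values rest on at most 2 libraries.

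Groups follow the sample titles. Counts of all 5 libraries were tested with edgeR 4.0.16 in R 4.3.3 (filterByExpr, TMM, robust quasi-likelihood F test, group as the only term), adjusted by Benjamini-Hochberg over 13833 genes, at a threshold of 0.05. Standard errors are the size of the log2 fold change over the square root of F, and 95% intervals use the test's degrees of freedom. Poisson intervals are exact at 95% and, without molecular identifiers, cover counting error only. A comparison with 1 LT4 library assumes that it varies like the controls. DESeq2 1.42.0, limma 3.58.1, other scalings, filters and left-out libraries were alternatives. Figures used matplotlib 3.10.9, with pandas 2.3.3 in Python 3.11.15. The fit was also run on counts simulated from control means and its own dispersions, so that run does not test the assumptions of the fit. Positions are from GENCODE 29 (GRCh38).

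The members and lists were chosen with earlier results of these data known. Named are all 8 members and, of each list, the 3 tested genes with the smallest p and the most abundant gene. Any other gene is marked in the text as named with its values in view. Of the genes the rule covers, 1 is not reported here.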

Additional observations from a re-analysis of the deposited data

How the results depend on the processing

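None of the 8 genes passed under any of the alternatives run, which left the log2 fold changes of HMGCS1, IDI1, LSS, SC5D and INSIG1 with the same sign in all 14. FDFT1 turned to -0.0086 with no count filter and to -0.0014 after a trend of each library on gene length was taken out. SQLE turned to 0.0349 with library totals only, to 0.12 with all libraries thinned to the depth of LT4 replicate 3, and ran from -0.18 to 0.10 when 1 library was left out. SREBF2 turned to -0.0734 with the length trend removed and ran from -0.39 to 0.35 when 1 library was left out. The 19 genes called over the whole table became 311 with no count filter, 114 by DESeq2, 35 with the length trend removed, 1 at an adjusted p under 0.01, and 1 to 598 when 1 library was left out. Of the 62 tested genes of the 6 lists, 1 passed with no count filter (SREBF1, lower) and 0 to 6 when 1 library was left out, the 6 without LT4 replicate 1. The causes were not tested.

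With a replicate block, 427 genes and 2 list genes (SREBF1 and SCD, both lower) passed, and none of the 8. Deviations from the group means correlated by 0.207 for replicate 1 and 0.212 for replicate 3. With only 2 LT4 libraries, their deviations mirror each other, so these values are not independent and cannot decide whether samples are paired. The labels do not say that numbers pair the samples. LT4 replicate 3, where 3 counts make 1.31 CPM, limits what can be seen of scarce genes such as SC5D.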
